A study of Mus with 6 samples.

Results

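The long non-coding RNAs (lncRNAs) described here lie at loci of the Sox transcription factor genes. They were chosen by name, as every entry of the authors' deposited table by gene name that joins a Sox gene number with os (opposite strand) or ot (overlapping transcript). This gave 4 lncRNAs of 2282 names: Sox1ot, Sox2ot, Sox5os3 and Sox6os. RefSeq lists all 4 as lncRNA genes and places each over the Sox gene of its name (Sox1, Sox2, Sox5 and Sox6). RNA came from the right substantia nigra pars compacta, whose dopaminergic neurons degenerate in Parkinson's disease. All mice overexpressed human α-synuclein carrying A53T, a substitution that causes a familial form of the disease. The model group (3 samples) received 0.9% saline and the AVE0991 group (3 samples) received AVE0991 at 10 mg/kg, both once daily into the peritoneum for 30 days. The compound is an agonist of the angiotensin-(1-7) receptor Mas and is not a peptide. No wild-type group was analysed here, and the sources used here give neither the promoter behind the transgene nor the animals' age.

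Sox proteins bind DNA through a high-mobility-group domain and set cell fate in many tissues. Sox1 and Sox2 belong to the SoxB1 subgroup, which keeps neural progenitors undifferentiated. Sox1 also acts in ventral forebrain neurons, and Sox2 stays on in adult neural stem cells and in glia. Sox5 and Sox6 form the SoxD subgroup, which lacks a transactivation domain of its own and works through partner proteins. They time the differentiation of oligodendrocytes and of cortical neurons, and Sox6 marks a large share of the dopaminergic neurons of the substantia nigra itself. Sox2 is transcribed from within an intron of Sox2ot, a lncRNA of neural tissue and of embryonic stem cells. The mRNAs of the Sox genes were not analysed here, since none of the 19 protein-coding Sox genes of RefSeq had a row under its own name in the named table. The same held for the 32 protein-coding markers of dopaminergic neurons, glia and progenitors that were listed for a check of the tissue, so the label of the tissue was not checked against them.

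Whole counts were recovered for all 4 lncRNAs in each of 6 libraries. Within a group the libraries are called a, b and c in order of falling library factor. These letters name libraries of the named table only and were not matched to the replicate numbers of the samples. A normalized count is a count divided by its library factor, and the factors ran from 0.921 to 1.18. The recovered libraries held 1671776 to 2274369 counts over all named RNAs. In the count table by identifier, the samples held 37036986 to 52029003 counts. Model library c stood closer to the AVE0991 libraries than its group did. Across named RNAs, which are not independent replicates, its Spearman correlation with them ran from 0.959 to 0.963, against 0.937 to 0.947 for model libraries a and b. Nothing in the labels ties the samples to separate animals. The p-values therefore reflect the spread over these samples only, and part of that spread may be technical. In bulk tissue, fewer cells of a type and less RNA per cell cannot be told apart.

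The comparison asked which of these lncRNAs differ between AVE0991 and saline in the transgenic mice. Sox1ot rose 2.72-fold with AVE0991 (95% interval 1.95 to 3.80, n = 3 each). Sox5os3 and Sox6os were 1.43-fold and 1.42-fold as high with AVE0991, and Sox2ot was 0.888-fold as high, and none of these differences passed the test. Thus 1 of the 4 was called higher and 0 were called lower (edgeR quasi-likelihood test, Benjamini-Hochberg adjusted p under 0.05 over the 1867 named RNAs tested). Over all tested RNAs 7.82% were called higher, 8.36% lower and 16.2% in either direction. All 4 lncRNAs passed the filter on low counts. The median log2 fold change of all tested RNAs was -0.02.

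**Figure D1:**
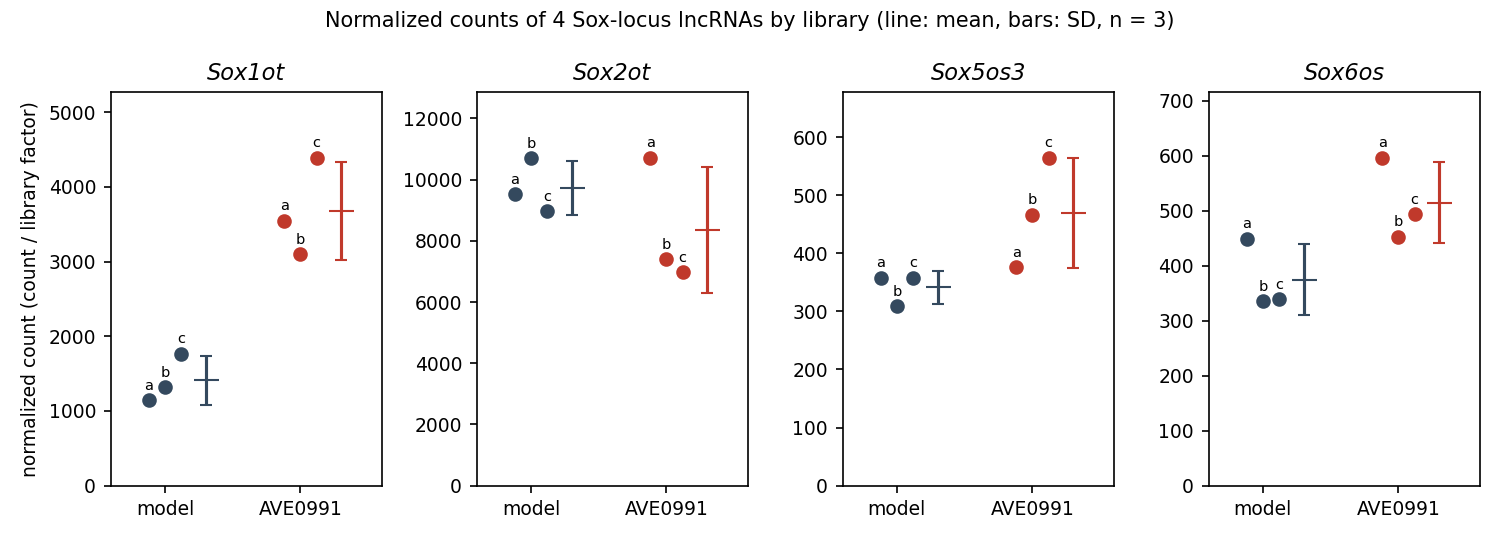
Normalized count (count divided by library factor, linear axis from 0) of each lncRNA in each library, with model libraries in dark blue and AVE0991 libraries in red. Points are libraries a, b and c, and the line and bars beside them are the mean and SD of 3. The AVE0991 libraries of Sox1ot sit between 3095 and 4391, above all model libraries, whereas those of Sox2ot span the model libraries.

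Sox1ot, which overlaps the progenitor gene Sox1, had normalized counts of 1140, 1315 and 1769 in libraries a, b and c of the model group. In AVE0991 libraries a, b and c it had 3548, 3095 and 4391. The groups did not overlap, and the lowest AVE0991 library stood well above the highest model library, which was the c library described above. Model libraries averaged 1408 ± 324 (SD, n = 3) and AVE0991 libraries averaged 3678 ± 658 (SD, n = 3). The log2 fold change was 1.44 ± 0.21 (SE; 95% interval 0.96 to 1.92), with an adjusted p of 0.00412 (edgeR quasi-likelihood test). It was larger than that of 95.5% of the tested RNAs, and 41 of them had a smaller p. Counting error, taking each count as 1 independent read, was a minor part of the spread. The coefficient of variation between libraries was 23.0% in the model group and 17.9% with AVE0991. Counting alone would then give 2.52% and 1.68%. RNAs with counts in 1 library often had exactly 4 (1700021F02Rik and 1700028B04Rik, for example). Counts may therefore not be single reads, and the counting errors given here may be too small. This was not tested.

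The call of Sox1ot held with each library left out in turn. Its log2 fold change then ran from 1.27 without AVE0991 library c to 1.63 without model library c, with adjusted p from 0.000951 to 0.0273 (edgeR). The test in the authors' deposited table uses the 3 values of each group alone and borrows no spread from other RNAs. That table gave Sox1ot a difference of 2270 in mean signal (95% interval 901 to 3639), a statistic of 5.36 on 2.92 degrees of freedom and an unadjusted p of 0.0136. Of the 2247 names with a statistic in the authors' deposited table, 8.19% were higher at an unadjusted p under 0.05. After adjustment over all names the p of Sox1ot there was 0.233.

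Sox2ot, the host of Sox2 and the RNA with the most counts of the 4, had 9532, 10706 and 8974 normalized counts in libraries a, b and c of the model group. With AVE0991 it had 10719, 7396 and 6970 in libraries a, b and c. Library a of the AVE0991 group matched the highest model library, and libraries b and c lay below every model library, so the groups overlapped. Model libraries averaged 9737 ± 884 (SD, n = 3) and AVE0991 libraries averaged 8362 ± 2052 (SD, n = 3). The log2 fold change was -0.17 ± 0.17 (SE), with an adjusted p of 0.537 (edgeR). Its 95% interval of -0.55 to 0.21 spans 0.683-fold to 1.15-fold, which leaves out a 2-fold change in either direction. Without AVE0991 library a the log2 fold change was -0.37, and it was still not called (adjusted p = 0.143, edgeR). The authors' deposited table gave a statistic of -1.07 on 2.72 degrees of freedom and an unadjusted p of 0.372.

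The AVE0991 group varied more than the model group for Sox2ot, with coefficients of variation of 24.5% and 9.08%. Sox5os3 had the same order of spreads, at 20.1% and 8.30%. For Sox1ot and Sox6os the model group was the more variable one, with 17.2% against 14.4% for Sox6os. With 3 libraries a group, no test of these spreads was made.

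Sox6os, named for the strand opposite to Sox6, had 449, 336 and 339 normalized counts in libraries a, b and c of the model group. With AVE0991 it had 597, 453 and 494 in libraries a, b and c. All AVE0991 libraries were above all model libraries, but AVE0991 library b and model library a were closer than counting error. That error is at least about 5% for their counts of 444 and 529. Library a was the highest of its group in both arms, but the letters do not link libraries between the groups. Model libraries averaged 375 ± 64.4 (SD, n = 3) and AVE0991 libraries averaged 515 ± 74.0 (SD, n = 3). The log2 fold change of 0.51 ± 0.20 (SE) did not pass (adjusted p = 0.115, edgeR), although its unadjusted p was 0.0297. The 95% interval ran from 0.06 to 0.95.

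Sox5os3, named for the strand opposite to Sox5, had 358, 309 and 358 normalized counts in libraries a, b and c of the model group. With AVE0991 it had 376, 466 and 565 in libraries a, b and c. Again no libraries overlapped, but AVE0991 library a lay within counting error of model libraries a and c, so the difference rested on libraries b and c. Model libraries averaged 341 ± 28.3 (SD, n = 3) and AVE0991 libraries averaged 469 ± 94.4 (SD, n = 3). The log2 fold change was 0.52 ± 0.21 (SE; 95% interval 0.04 to 1.00), with an adjusted p of 0.135 (edgeR) and an unadjusted p of 0.0381. Without AVE0991 library c it was 0.33, and the adjusted p was 0.337 (edgeR).

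For both SoxD lncRNAs the intervals reach from almost no difference to about 2-fold, so these data do not show that they were unchanged. The authors' deposited table gave unadjusted p of 0.0699 for Sox6os and 0.135 for Sox5os3. Counting the libraries alone, 3 of the 4 lncRNAs had every AVE0991 library above every model library, against 16.5% of all tested RNAs. The order of libraries for these 3 was kept under each other scaling tried, where the share of all RNAs ran up to 19.1%. For 2 of the 3, Sox5os3 and Sox6os, the gap between the groups was within counting error.

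**Figure D2:**
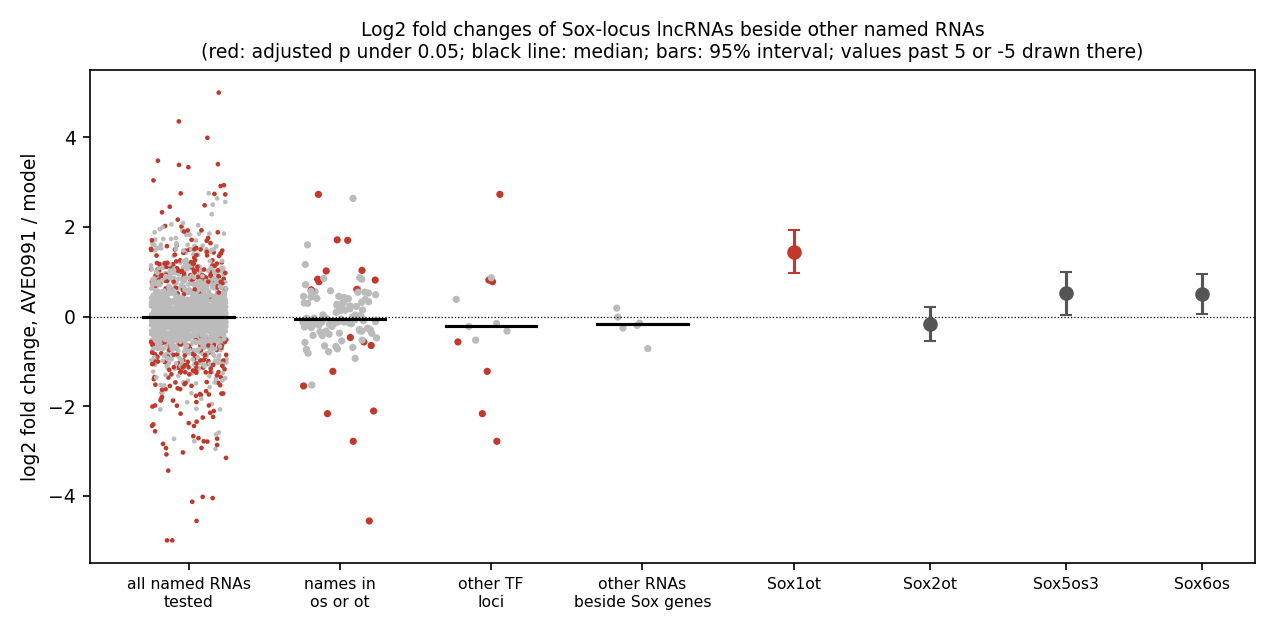
Log2 fold change (AVE0991 over model, edgeR) of all 1867 named RNAs tested, of 3 groups of names and of the 4 Sox-locus lncRNAs. Red marks an adjusted p under 0.05, black lines are medians and the bars of the 4 lncRNAs are 95% intervals. Only the interval of Sox1ot, from 0.96 to 1.92, lies far from 0. The other RNAs beside Sox genes run from -0.72 to 0.19, with a median of -0.17.

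Whether the 4 lncRNAs moved alike was examined with ratios inside each library, which remove the library's scaling. The log2 ratio of Sox1ot to Sox2ot was -3.06, -3.02 and -2.34 in libraries a, b and c of the model group. In AVE0991 libraries a, b and c it was -1.59, -1.26 and -0.67, with no overlap between groups. The group means differed by 1.64 on the log2 scale. The ratio of Sox1ot to Sox6os differed by 0.93 and that of Sox1ot to Sox5os3 by 0.95, also with no overlap. With a library left out, the Sox1ot to Sox6os difference ran from 0.66 without model library a to 1.17 without model library c. The ratio of Sox2ot to Sox6os was lower with AVE0991 by 0.70 on the log2 scale, at 4.16, 4.02 and 3.81 against 4.40, 4.99 and 4.72 in the model libraries. Each of these 4 pairs had an exact two-sided permutation p of 0.1, the smallest that 3 libraries against 3 allow, and an adjusted p of 0.15 over 6 pairs. The design cannot reach 0.05 here. The pairs share members and are not independent, and those with Sox1ot partly restate its rise. Ratios between other named RNAs were not taken, so how often they would separate is unknown.

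The SoxD pair, Sox5os3 and Sox6os, did not separate. The log2 ratio of Sox5os3 to Sox6os averaged -0.12 ± 0.20 over the model libraries and -0.14 ± 0.46 over the AVE0991 libraries (SD, n = 3 each; exact permutation p = 0.9, two-sided). The like mean differences of this pair hide unlike libraries. AVE0991 library a held the highest normalized count of Sox6os of all 6 libraries and the lowest of Sox5os3 in its group, at a log2 ratio of -0.66 against 0.04 and 0.19 in libraries b and c. The last pair, Sox2ot and Sox5os3, overlapped between groups, with a difference of -0.68 (exact permutation p = 0.3, two-sided, adjusted p = 0.36 over 6 pairs). Single libraries moved it from -0.42 without AVE0991 library c to -1.02 without AVE0991 library a.

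**Figure D3:**
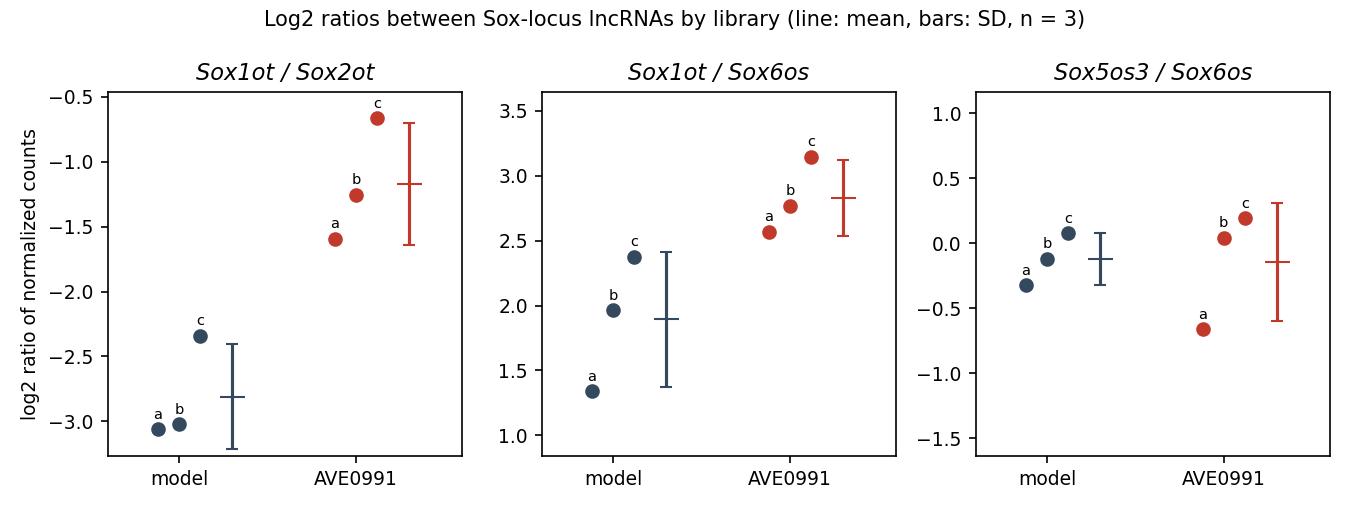
Log2 ratio of the normalized counts of 3 pairs of Sox-locus lncRNAs in each library (vertical axes each span the same range), with model libraries in dark blue and AVE0991 libraries in red. Lines and bars are the mean and SD of 3 libraries. The ratio of Sox1ot to Sox2ot runs from -3.06 to -2.34 in the model group and from -1.59 to -0.67 with AVE0991, and that of Sox5os3 to Sox6os overlaps.

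Other named RNAs beside Sox genes were looked up by position. RefSeq places 6 further names of the table over or directly next to a protein-coding Sox gene, a choice made after the data were seen. Of these 6, 0 were called in either direction by the edgeR test, where 1 (Mir1934) had an unadjusted p under 0.05. DESeq2 and limma-voom also called 0. With 16.2% of all tested RNAs called by edgeR, about 1 call in 6 names is the background, so 0 of 6 does not set these RNAs apart. Cerox1, next to Sox8, is a lncRNA known for raising the activity of mitochondrial complex I. It had 579, 498 and 866 normalized counts in libraries a, b and c of the model group and 622, 511 and 721 with AVE0991. Its log2 fold change was -0.01 ± 0.25 (SE). BC006965 and Gm11681, on either side of Sox9, had log2 fold changes of -0.20 ± 0.19 and 0.19 ± 0.31 (SE). Gm4675, over Sox21, and Gm10863, next to Sox10, had -0.26 ± 0.34 and -0.15 ± 0.31 (SE). Mir1934, next to Sox15, had the largest difference of the 6, with 64.5, 91.3 and 85.0 in the model libraries against 54.4, 50.0 and 36.9 with AVE0991 and a log2 fold change of -0.72 ± 0.31 (SE). The median of the 6 was -0.17.

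Antisense and overlapping RNAs as a class were called as often as named RNAs overall. Of 118 tested names ending in os or ot other than the Sox lncRNAs, 10 rose, 9 fell and 99 did not pass, which is 16.1% called against 16.2% of all tested RNAs. Their median log2 fold change was -0.07. Besides those of developmental loci named next, the risers were Ptgs2os (log2 fold change 1.71), Grip1os1 (1.70), Grip1os2 (1.03), Gad1os (1.02), Chn1os3 (0.83), Bach2os (0.60) and Cd55os (0.60). Tmem132cos (-2.11), Igf2os (-1.55), Ppp2r2cos (-0.65) and Brip1os (-0.47) fell, as did Far1os, which had 0, 2 and 0 counts in AVE0991 libraries a, b and c against 37, 14 and 16 in those of the model group. The imprinted antisense RNA Kcnq1ot1 (0.04 ± 0.09, SE) and Cdr1os (0.17 ± 0.13, SE), the most counted of these names, did not pass. Among 13 tested RNAs named after other developmental transcription factors, 3 rose, 4 fell and 6 did not pass, and the median was -0.22. Dlx6os1 (log2 fold change 2.73), Zeb2os (0.78) and Emx2os (0.81) rose. Lhx1os (-2.79), Dlx4os (-2.17), Otx2os1 (-1.23) and Prox1os (-0.57) fell, and Pax6os1 (-0.33 ± 0.16, SE) did not pass. Of these 13 RNAs, Dlx6os1 alone rose by more than Sox1ot, while Lhx1os and Dlx4os fell by more than Sox1ot rose.

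Of 13 tested lncRNAs of neural development, a list that shares 5 names with the one above, 3 rose, 3 fell and 7 did not pass (median log2 fold change 0.25). Over all tested RNAs 7.82% rose and 8.36% fell, and the list was drawn up with earlier results known. Besides Dlx6os1 and Emx2os, Miat rose, a nuclear lncRNA of neurons and retina, by 0.96 ± 0.22 (SE) on the log2 scale. Paupar (-2.41), Lhx1os and Otx2os1 fell, and Oip5os1 had -0.34 ± 0.25 (SE). Rmst, a lncRNA known to bind the Sox2 protein and to guide it to neurogenic targets, had 3268, 3566 and 3656 normalized counts in the model libraries and 3675, 3547 and 3052 with AVE0991. Its log2 fold change was 0.02 ± 0.13 (SE), and its groups overlapped as those of Sox2ot did. Pantr1 and Pantr2, lncRNAs beside the neural Pou3f3 gene and of neural progenitors, had 0.67 ± 0.21 and 0.47 ± 0.17 (SE), and neither passed the test.

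Lists of non-coding RNAs, each assigned to 1 cell class, were examined beside the rise of Sox1ot. Their members need not be confined to that class. Rmst and Pantr1 of the glial list, for example, are also among the lncRNAs of neural development above. Sums over a list therefore do not measure cell numbers. Of 3 fixed RNAs of forebrain GABA neurons, 2 had counts and none of these was at 0. Their summed normalized count ran from 1587 to 4298 in the model libraries and from 14392 to 20008 with AVE0991, and Dlx6os1 held nearly all of it. Of 6 fixed neuronal RNAs, 3 were among the named RNAs, and of these only Miat and Mirg had recovered counts. The remaining named one is therefore missing from the neuronal sum. That sum ran from 19858 to 31551 in the model group and from 39915 to 43920 with AVE0991. Miat held most of this sum and accounted for its difference, while Mirg had 2899 to 4238 normalized counts in the model group and 3479 to 3928 with AVE0991 (log2 fold change 0.04 ± 0.17, SE). The sums overlapped between groups for oligodendrocytes (11378 to 14636 against 8695 to 21178, 2 of 2 RNAs) and for astrocytes and radial glia (17053 to 20180 against 18068 to 22170, 3 of 5 RNAs). Single members did not overlap between groups within these sums, though none was called. Over all tested RNAs, 16.5% were higher in every AVE0991 library, and the share lower in every one was not taken. The oligodendrocyte RNA 9630013A20Rik had 864 to 1275 in the model group and 1314 to 1769 with AVE0991 (log2 fold change 0.60 ± 0.18, SE; adjusted p = 0.0528, edgeR), beside the more abundant and more variable Neat1. Among the glial RNAs, Pantr1 was higher in every AVE0991 library (7644 to 10415 against 4649 to 7568) and C130071C03Rik was lower in every one (6828 to 8149 against 8615 to 10920). The nearest libraries of the groups were close for 9630013A20Rik (1314 against 1275) and Pantr1 (7644 against 7568). Dlx6os1 and Miat rose with Sox1ot, and the part of these cell classes in its rise was not tested.

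The named RNAs whose pattern was most like each lncRNA were taken by the correlation of log2 normalized counts over the 6 libraries, among 514 RNAs with symbols that are not clone names. Libraries and treatment groups are shared, so these values describe likeness only. For Sox1ot the nearest were Rps4l (r = 0.98), Platr26 (0.98) and Zeb2os (0.98), and of these Rps4l and Zeb2os also rose, by 1.17 and 0.78 on the log2 scale. For Sox2ot they were Mir1902 (0.99), Mir5098 (0.98) and Gt(ROSA)26Sor (0.96), whose log2 fold changes lay between -0.29 and -0.09. For Sox5os3 they were Dnmt3aos (0.95), Grip1os1 (0.91) and Uchl1os (0.91). For Sox6os they were Zfp133-ps (0.97), Jpx (0.94) and Phf8-ps (0.93). Uchl1os and Phf8-ps had few counts, with mean normalized counts of 48.0 and 20.8 with AVE0991 and 37.9 and 13.8 in the model group. Their likeness is therefore the less certain. The 4 lists share no RNA.

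Leaving out libraries and changing the scaling, the filter or the test moved the sizes little against the distance between Sox1ot and the rest. Over the 15 settings, the log2 fold change of Sox1ot ran from 1.27 to 1.63, that of Sox6os from 0.40 to 0.67 and that of Sox5os3 from 0.33 to 0.66. Sox2ot ran from -0.37 to -0.06. The sign of each lncRNA was the same in all 15.

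**Figure D4:**
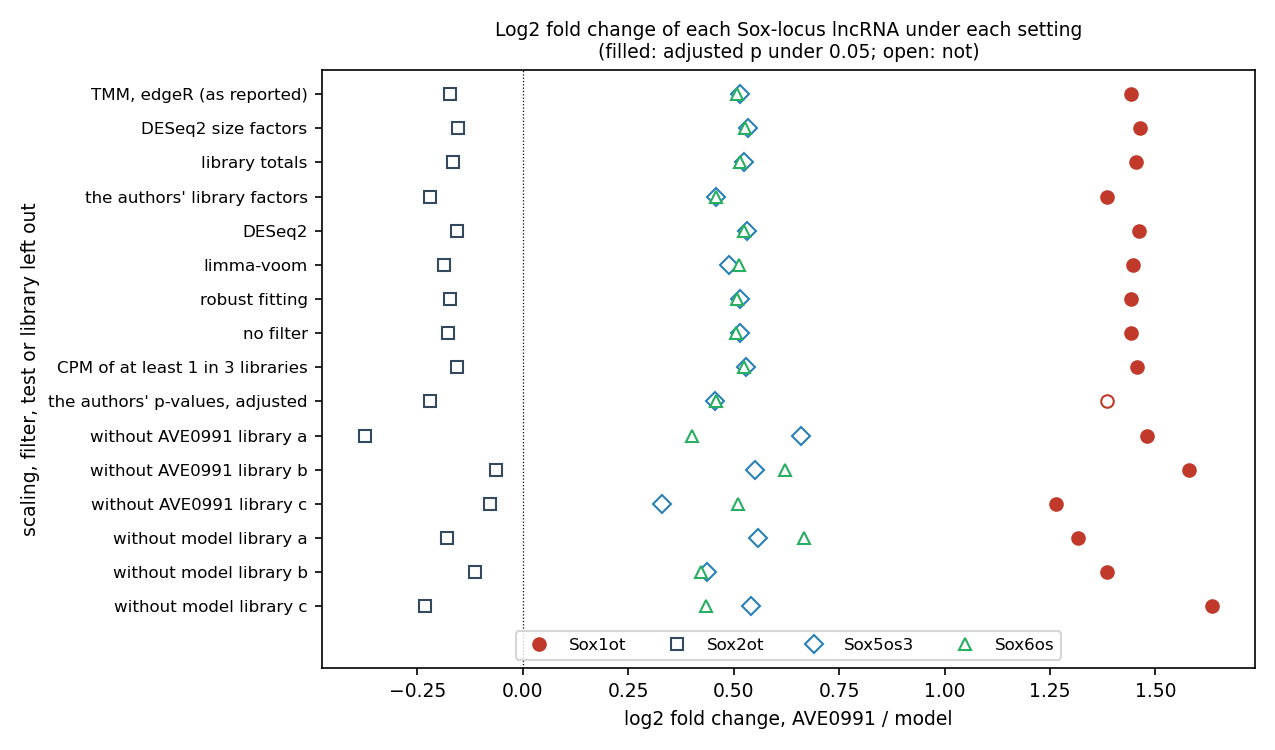
Log2 fold change (AVE0991 over model) of each Sox-locus lncRNA under each scaling, filter, test or left-out library, with filled symbols for an adjusted p under 0.05 and open symbols otherwise. Sox1ot stays to the right of the others and is filled in each setting except the authors' p-values, while Sox5os3, Sox6os and Sox2ot are open throughout.

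Sox1ot, Sox2ot, Sox5os3 and Sox6os each lie over the Sox gene of their name. The sources used here give no strand setting for the counting. Reads of a Sox mRNA and of the lncRNA over it cannot be told apart where their annotated parts overlap. Counts are not corrected for the length of the parts counted for each RNA, which is unknown. Ratios between lncRNAs and sums over RNAs were therefore compared between groups only. Their sizes do not rank the RNAs by level.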

How the data were processed

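The 4 lncRNAs and all gene lists were chosen with earlier results of these data known. The submitters' processing notes name the build mm9, the aligner STAR (2.7.7a) and DESeq2 (1.10.1). Per the labels' protocols, reads were checked with FastQC 0.11.8 and trimmed with fastp 0.19.5. The sources used here do not give the counting program, annotation or strand setting. The authors deposited whole-number counts per identifier, used here for depth only. Their deposited table by name holds the group means of a signal, a test statistic (a score) with its degrees of freedom, an unadjusted p-value, a fold ratio and its log2, per the file headers. From the values, the deposited ratio adds 1 to each mean.

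Each mean is that of 3 counts divided by library factors, and statistic and degrees of freedom give the variances. Of 2247 names with a statistic, 2239 (99.6%) were solved by a single set of whole counts (relative tolerance 1e-09 on the sum and 1e-06 on the statistic). For 4 more, several sets were possible, and 4 were too abundant to be solved. The 35 names without a statistic were 0 throughout.

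The counts were tested with edgeR 4.0.16 (R 4.3.3; quasi-likelihood, TMM scaling, filterByExpr), adjusted by Benjamini-Hochberg over 1867 names. Each SE is the log2 fold change over the root of its F statistic. Ratios between lncRNAs used a pseudocount of 2 and exact permutation tests (scipy 1.17.1). Named were all 4 lncRNAs, all called members and up to 4 of the most counted members of each list, the 6 RNAs beside Sox genes and the 3 RNAs most like each lncRNA. Rmst and Pantr2, also in a list, were chosen after their values were seen. The steps were tested on simulated data, with the same spread beyond counting error set for all names. Of 1850 names, 100 changed by 1 and 100 by 2 on the log2 scale were called in 59% and 98% of cases. Among the calls, 4.27% were unchanged names. Changes as small as those of Sox5os3 and Sox6os were not simulated. RefSeq (GRCm38.p6) served for class and neighbours, with no coordinates because the builds differ. Alternatives were other scalings, filters, DESeq2 1.42.0, limma-voom (limma 3.58.1), robust fitting and each library left out.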

Additional observations from a re-analysis of the deposited data

How the results depend on the processing

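The count of called Sox-locus lncRNAs was 1 under every scaling, filter and count test run, with a 2-fold minimum, and in all 6 fits with a library left out (range 1 to 1). It was 0 with the authors' p-values adjusted, where Sox1ot had a log2 fold change of 1.38 and an adjusted p of 0.233. At an unadjusted p under 0.05 that table had Sox1ot alone of the 4. With a library left out, the log2 fold changes ran from 1.27 to 1.63 (Sox1ot), -0.37 to -0.06 (Sox2ot), 0.33 to 0.66 (Sox5os3) and 0.40 to 0.67 (Sox6os). Of all named RNAs, 302 were called, and 282 to 404 under the other scalings, filters and count tests; DESeq2 gave 404. A 2-fold minimum gave 187 and the authors' adjusted p gave 0. The fits without a library, where fewer samples enter, gave 91 to 168, except for 418 without model library c. The difference in the log2 ratio of Sox5os3 to Sox6os was -0.02 and changed sign without AVE0991 library a (0.24) and without model library c (0.08), with a range of -0.19 to 0.24 over the 6 cases. Pseudocounts of 0.5 and 5 changed no sign among the ratios. The comparison of library order under other scalings was added after seeing the data. No paired analysis was possible because the recovered libraries carry no replicate number.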
